A study of Rattus norvegicus with 31 samples.

Results

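The comparison described here is that of cold against room temperature in control rats, made up of the 16 control libraries among the 31 of the series. Members were chosen by the group and temperature in the sample titles: 8 control animals after 14 days at 4 °C, numbered 16 to 23, and 8 control animals kept at room temperature over the same period, numbered 1 to 8. All were female Sprague Dawley rats, 7 months old and fed chow, and each gave 1 library from the gastrocnemius, a calf muscle of mixed but mainly fast fibres. The labels call these animals control or WT and name no other allele or agent, litter, cage or batch. Nothing in the labels pairs a cold animal with a room temperature animal. The other 15 libraries came from Ucp1 knockout rats at the same temperatures. They entered the model's estimate of spread and are set beside the control values only near the end.

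Muscle warms a cold animal by shivering, which is contraction without work, and by processes that spend ATP or fuel without contraction, such as calcium cycling at the sarcoplasmic reticulum. Repeated low-force activity is known to favour the slow fibre programme, in which slow isoforms of myosin, troponin and tropomyosin, the slow calcium pump and oxidative enzymes are made in place of their fast counterparts. Brief contraction also induces immediate early genes such as Fos and Egr1, whose mRNAs last a short time.

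Libraries were made with a 3' tag kit, so a value counts reads near the 3' end of a transcript and levels are not compared between genes. Levels are given as CPM, the counts scaled to a common library size, after TMM scaling. Total counts were 8.83 ± 1.13 M at room temperature and 9.07 ± 0.933 M in the cold (SD, n = 8 and 8), a difference of 0.249 M (exact permutation test, two-sided, p = 0.651, adjusted p = 0.651 over 2 measures). Defining muscle genes were abundant in every control library: the lowest level of the skeletal actin Acta1 was 33580 CPM, that of the fast troponin Tnni2 16510 CPM and that of the muscle creatine kinase Ckm 11060 CPM. Principal component 1, from all 31 libraries, held 35.3% of the variance. Cold animals 17 and 23 and room temperature animal 1 scored lowest among the control libraries on it, at -68.3, -38.95 and -43.4. The other control libraries scored -25.1 to 29.4. On component 2 (14.1%), room temperature animals 1 and 2 stood apart at -62.3 and -79.8, against -8.06 to 16.1 in the other control libraries. Their summed fibroblast markers were 597 and 537 CPM against 1319 to 1924 CPM in room temperature animals 3 to 8, their immune markers 196 and 160 CPM against 344 to 507 CPM, and their tendon markers 138 and 117 CPM against 276 to 453 CPM. Their fast contractile genes summed to 221600 and 194600 CPM against 127900 to 178500 CPM in room temperature animals 3 to 8. Cold animals 17, 20 and 23 also had high sums, 239600, 196800 and 213300 CPM, so this was not particular to animals 1 and 2. Many calls were lost without these 2 animals, and the values without them stand beside the genes concerned.

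After 14 days of cold the control gastrocnemius had more mRNA of slow contractile proteins, of embryonic and cardiac sarcomere isoforms and of a few enzymes of ketone, lactate and fructose use, and less mRNA of Fos, Egr1 and Jun, of 2 mitochondrially encoded subunits and of some vascular genes. By the quasi-likelihood test of edgeR, with p-values adjusted after Benjamini and Hochberg, 86 of 10082 genes passed an adjusted p of 0.05 (0.853% of those tested). Of these 60 were higher in the cold (0.595%) and 26 lower (0.258%), with median log2 changes of 1.02 and -0.96 against -0.03 over all genes tested. A symbol was available for 80 of the 86. The change was larger than 1 on the log2 scale in 32 of the higher genes and in 12 of the lower ones. In 24 of the higher genes and 0 of the lower ones, the 8 cold libraries did not overlap the 8 room temperature libraries, a separation that 44 genes showed in all (0.436%: 33 higher and 11 lower). DESeq2 called 220 genes, 128 higher and 92 lower, including all 86. Of the 86 calls 18 held in every removal of libraries that was tried. Atp2a2, Myh7, Tpm3, Myoz2, Myh3, Bdh1, Slc2a5, Fos and Mt-nd4l were among them. Tnnt1, Tnnt2, Tnni3, Ldhb, Khk, Egr1, Jun, Mt-nd5 and the vascular genes named below were not.

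**Figure D1:**
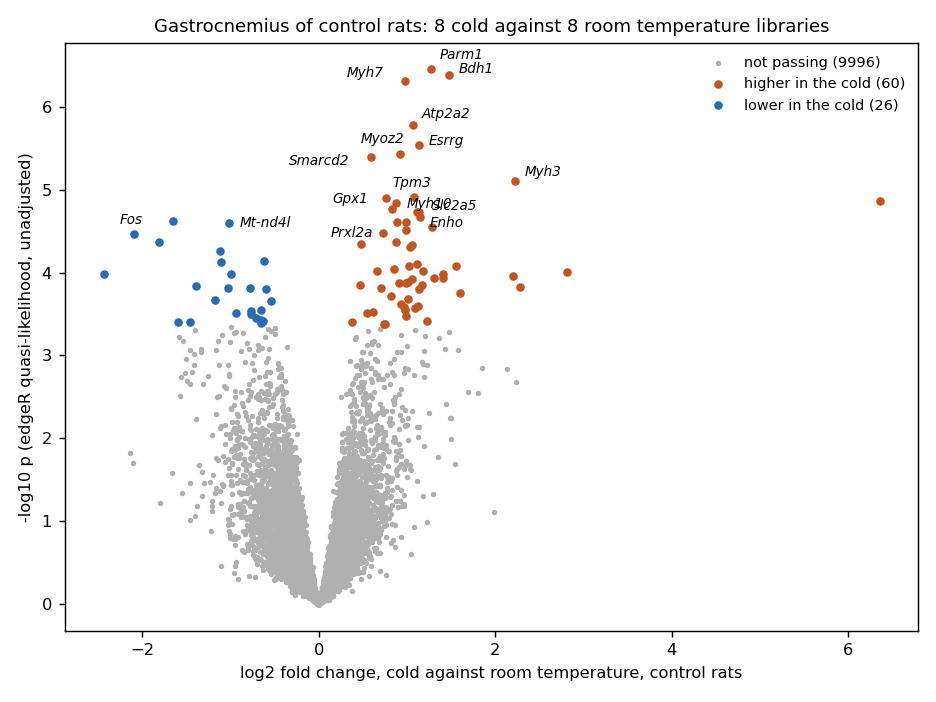
Each point is 1 of 10082 genes; the horizontal axis is the log2 fold change in cold control rats and the vertical axis is -log10 of the unadjusted edgeR p. Orange marks the 60 genes higher and blue the 26 lower at adjusted p under 0.05, and names mark genes whose call no removal of libraries ended; Parm1, Bdh1 and Myh7 have the smallest p, and the point at a log2 change of 6.35 is an identifier with no symbol in the deposited table.

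Several slow contractile genes separated the temperatures without overlap. Atp2a2, the calcium pump of slow and cardiac sarcoplasmic reticulum, was measured at 350, 343, 507, 657, 606, 555, 693 and 582 CPM in room temperature animals 1 to 8 and at 1361, 1205, 1071, 1060, 882, 999, 1291 and 1143 CPM in cold animals 16 to 23. The lowest cold value lay above the highest room temperature value, and animals 1 and 2 held the lowest places. Its level rose by 1.07 ± 0.18 on the log2 scale (SE, n = 8 and 8, edgeR adjusted p = 0.00415). Myh7, the slow myosin heavy chain, ran from 1441 through a median of 2321 to 3154 CPM at room temperature and from 3558 through 4437 to 5653 CPM in the cold, again with no overlap (0.97 ± 0.16, adjusted p = 0.00164).

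Of 20 tested genes of the slow fibre sarcomere and its calcium handling, 5 rose, 0 fell and 15 did not pass, with a median log2 change of 0.48. In that list 18 changes were above 0 (46.1% of all genes tested were above 0). Counts in this and every later list are to be read beside the shares of all genes tested that rose (0.595%) and fell (0.258%). No list count was tested against these shares. The other members that rose were thin filament and Z-disc proteins. Tpm3, the slow tropomyosin, lay at 231 to 937 CPM (median 688) at room temperature and at 1082 to 1545 CPM (median 1299) in the cold (1.08 ± 0.21, adjusted p = 0.0122). Myoz2, a Z-disc protein that binds calcineurin, lay at 162 to 408 CPM (median 335) and at 442 to 783 CPM (median 574; 0.92 ± 0.17, adjusted p = 0.00585). Tnnt1, the slow troponin T that anchors the troponin complex to tropomyosin, lay at 1690 to 7418 CPM (median 5708) and at 7902 to 11850 CPM (median 9461; 0.98 ± 0.24, adjusted p = 0.0416). All 5 genes separated the groups without overlap. Summed over the list, room temperature libraries held 13750 to 24950 CPM and cold libraries 25670 to 34350 CPM.

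The slow members that did not pass included partners of those that rose. The slow troponins Tnni1 (0.45, adjusted p = 0.0914) and Tnnc1 (0.81, adjusted p = 0.101) and the slow myosin light chains Myl2 (0.64, adjusted p = 0.323) and Myl3 (0.42, adjusted p = 0.336) had positive log2 changes under the threshold. Sarcolipin, Sln, a small inhibitor that lets the calcium pump spend ATP without moving calcium, ran from 1.26 to 18.2 CPM at room temperature and from 1.86 to 91.5 CPM in the cold, with wide overlap (1.80 ± 0.56, adjusted p = 0.114). Phospholamban, Pln, the related inhibitor, had a log2 change of 0.09 (adjusted p = 0.811). The call of Tnnt1 was lost when any 1 of 10 libraries was left out (adjusted p up to 0.0851) and without room temperature animals 1 and 2 (0.72, adjusted p = 0.102). The calls of Atp2a2, Myh7, Tpm3 and Myoz2 held there, at log2 changes of 0.91, 0.83, 0.82 and 0.76.

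**Figure D2:**
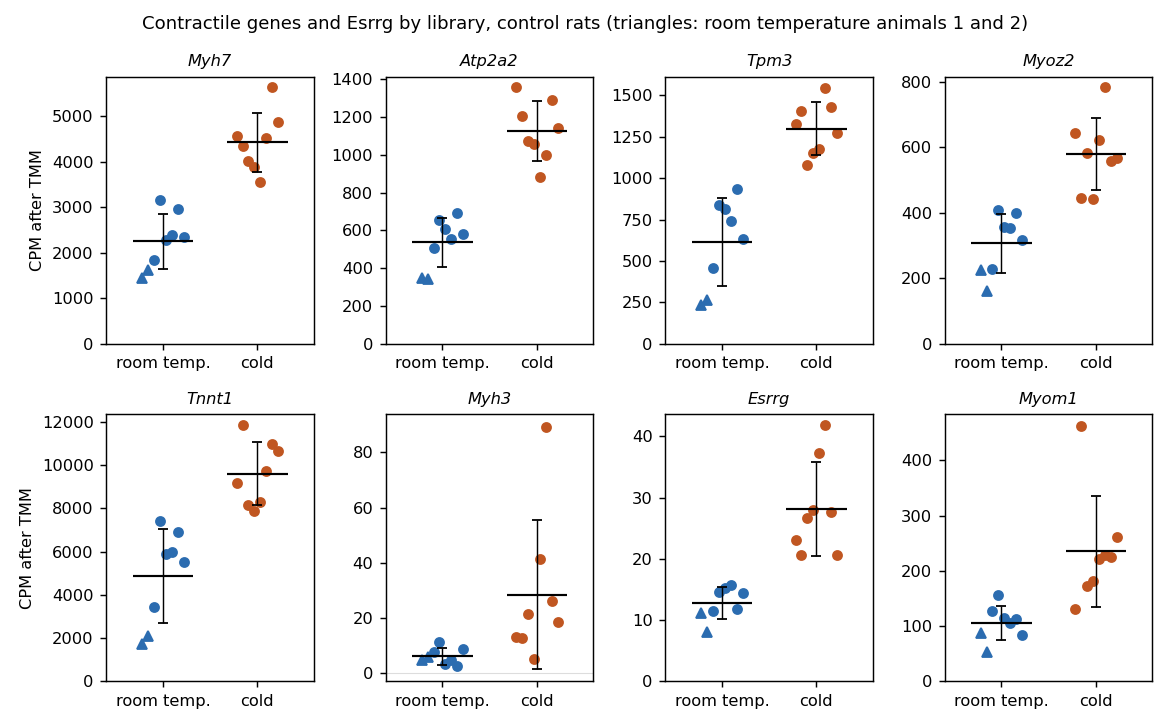
Level in CPM after TMM scaling of 8 genes in each of the 8 room temperature (blue) and 8 cold (orange) control libraries; bars show the mean and SD, and triangles mark room temperature animals 1 and 2. The cold libraries of Myh7, Atp2a2, Tpm3, Myoz2, Tnnt1 and Esrrg all lie above every room temperature library, while those of Myh3 and Myom1 overlap them, with single cold libraries at 89.4 and 463 CPM.

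The 250 bases upstream of 3 of the slow genes that rose are shown, each with a different motif marked, from RefSeq on GRCr8 and written on the gene's strand. Capitals mark the match to TCAAGGTCA, the element known to be bound by the estrogen-related receptors, in Tpm3 (chr2:177814633-177814882, plus strand), the match to the MEF2 motif in Myoz2 (chr2:213852779-213853028, minus strand) and the match to TATAAA in Tnnt1 (chr1:78348785-78349034, plus strand). The table's start site for Tpm3 lies inside the gene's annotated span.
Tpm3: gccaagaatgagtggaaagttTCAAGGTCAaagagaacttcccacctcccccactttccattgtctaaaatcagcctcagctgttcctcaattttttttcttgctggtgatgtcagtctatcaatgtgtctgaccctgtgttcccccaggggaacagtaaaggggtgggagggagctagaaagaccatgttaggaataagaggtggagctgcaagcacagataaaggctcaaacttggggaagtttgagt
Myoz2: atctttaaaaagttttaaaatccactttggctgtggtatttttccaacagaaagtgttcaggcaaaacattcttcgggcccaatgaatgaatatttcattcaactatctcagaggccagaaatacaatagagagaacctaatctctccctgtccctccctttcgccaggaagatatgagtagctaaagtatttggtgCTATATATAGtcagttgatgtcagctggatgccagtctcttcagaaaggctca
Tnnt1: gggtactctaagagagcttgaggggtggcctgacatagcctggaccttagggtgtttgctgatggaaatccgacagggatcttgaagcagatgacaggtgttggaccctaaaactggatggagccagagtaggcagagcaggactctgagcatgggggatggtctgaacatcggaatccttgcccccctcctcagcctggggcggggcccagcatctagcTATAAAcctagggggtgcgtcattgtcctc

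A window of 300 bases, reaching 50 bases past the start site, was available for 51 of the higher genes, 16 of the lower genes and 7694 of the genes tested, and was searched on both strands. TCAAGGTCA occurred in 1 of the 51 windows (1.96%), that of Tpm3 at -229 from the start, and in 0.234% of windows of tested genes. The MEF2 motif also occurred in 1 of 51, that of Myoz2 at -53, against 1.66%. The E-box CAGCTG occurred in 12 of 51 (23.5%), Myh7, Tpm3, Myoz2, Slc2a5, Khk and Parm1 among them, against 16% of windows of tested genes, and CATTCC, the core of the M-CAT element, in 9 of 51 (17.6%) against 11.2%. TATAAA occurred in 4 of 51 (7.84%), at -30 in both Tnnt1 and Myh3, against 6.95%. Windows of the 16 lower genes held these 3 motifs at higher rates than those of the higher genes, CAGCTG in 4 (25%), CATTCC in 5 (31.2%) and TATAAA in 3 (18.8%). A match describes the letters of a window and was not tested as a binding site.

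Of 17 tested members of the fast fibre list 0 passed by edgeR (3 at an unadjusted p under 0.05), while DESeq2 called 2 and voom 3, all higher, and their median log2 change was 0.02. Myh4, the myosin heavy chain of the fastest fibres, lay at 18730 to 31660 CPM at room temperature and at 30660 to 41720 CPM in the cold, where 5 of 8 cold libraries exceeded all room temperature libraries (0.49 ± 0.14, adjusted p = 0.0815). The fast troponins Tnnt3 (0.02) and Tnni2 (0.18) were far from the threshold (adjusted p = 0.957 and 0.682). The fast regulatory light chain Mylpf had a log2 change of 0.18 (adjusted p = 0.624). The list's summed level was 127900 to 221600 CPM at room temperature and 143200 to 239600 CPM in the cold. Without room temperature animals 1 and 2 the list's median log2 change was 0.24, still with 0 members passing. The heavy chains of the intermediate fibre types are not reported here.

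Among 29 tested regulators of fibre type 1 rose and 0 fell, with a median log2 change of 0.11. The member that rose was Esrrg, the estrogen-related receptor gamma, a nuclear receptor known to promote slow and oxidative genes in muscle (GRCr8 chromosome 13, 101699043 to 102316877). Its level was 11.1, 8.03, 11.5, 14.6, 15.2, 15.7, 11.8 and 14.5 CPM in room temperature animals 1 to 8 and 23.02, 20.6, 26.6, 27.95, 37.2, 41.9, 27.6 and 20.7 CPM in cold animals 16 to 23. Every cold library lay above every room temperature library (1.14 ± 0.20, adjusted p = 0.00576), and without animals 1 and 2 the log2 change was 1.03 (adjusted p = 0.0247). Esrra, its relative, had a log2 change of 0.08 (adjusted p = 0.915) and the coactivator Ppargc1a one of -0.12 (adjusted p = 0.884).

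Another regulator came close to the threshold. Rcan1, an inhibitor of calcineurin whose own transcript is induced by calcineurin signalling, lay at 59.6 to 168 CPM (median 90.8) and at 125 to 408 CPM (median 221; 1.21 ± 0.32, adjusted p = 0.0570).

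Isoforms that adult fast muscle normally keeps low were higher in some cold animals more than in others. Myh3, the embryonic myosin heavy chain, measured 4.67, 5.84, 7.72, 11.4, 3.37, 4.67, 2.58 and 8.76 CPM in room temperature animals 1 to 8 and 12.96, 12.6, 21.5, 5.17, 41.2, 89.4, 26.3 and 18.7 CPM in cold animals 16 to 23. All cold libraries but that of animal 19 lay above the room temperature range, and animals 20 and 21 were highest (2.23 ± 0.42, adjusted p = 0.00986). Without cold animal 21 its log2 change was 1.70, and the call held in every single omission. Tnnt2, the troponin T of heart and embryonic muscle, rose by 2.20 ± 0.50 (adjusted p = 0.0261) on low levels of 0.619 to 1.66 CPM against 1.32 to 17.95 CPM. Its call was lost without cold animal 21 (1.53, adjusted p = 0.111) and without room temperature animals 1 and 2 (2.25, adjusted p = 0.0679).

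Tnni3, the cardiac troponin I, followed the same animals. It reached 4.79 and 9.23 CPM in cold animals 20 and 21 and stayed at 0.471 to 0.985 CPM in the other 6 cold libraries, against 0.217 to 0.762 CPM at room temperature. Its log2 change of 2.28 ± 0.53 passed (adjusted p = 0.0276). Without cold animal 21 it was 1.504 (adjusted p = 0.130) and without room temperature animals 1 and 2 it was 2.45 (adjusted p = 0.0644). Leaving out any 1 of 8 libraries ended the call. In the list of 15 tested genes of embryonic muscle and regeneration 2 rose, Myh3 and Tnnt2, and 0 fell, with a median of 0.11. Without room temperature animals 1 and 2 the counts were 1 higher and 1 lower. The myogenic factors Myod1 (-0.55, adjusted p = 0.370) and Myog (-0.38, adjusted p = 0.649) were among the 13 that did not pass.

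At the neuromuscular junction 1 of 17 tested genes rose and 0 fell. That gene was Chrnd, a receptor subunit for acetylcholine, which lay at 20.7 to 49.2 CPM (median 33.3) at room temperature and at 48.9 to 115 CPM (median 82.4) in the cold (1.19 ± 0.27, adjusted p = 0.0251). Chrna1, the alpha subunit (0.94, adjusted p = 0.254), and Ache, the esterase that ends the signal (-0.88, adjusted p = 0.113), did not pass. Leaving out 1 of 2 libraries ended the call of Chrnd (adjusted p up to 0.0572). In the M-band and titin scaffold, 1 of 24 rose and 1 fell. Myom1, which links thick filaments at the M-band, went from 53.2 to 156 CPM up to 130 to 463 CPM (1.17 ± 0.27, adjusted p = 0.0276). Its highest cold value, 463 CPM, came from animal 17, and the call was lost without animals 1 and 2 (1.02, adjusted p = 0.109). Smtnl2, a smoothelin-like protein, fell from a median of 374 to 242 CPM (-0.63 ± 0.16, adjusted p = 0.0476), and stood at -0.51 without animals 1 and 2 (adjusted p = 0.198).

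The 2 genes with the smallest p besides Myh7 were not contractile genes. Parm1, a mucin-like membrane protein (GRCr8 chromosome 14, 16752541 to 16861570), lay at 4.02 to 8.76 CPM (median 6.52) at room temperature and at 10.6 to 19.4 CPM (median 13.6) in the cold (1.27 ± 0.20, adjusted p = 0.00164). Bdh1, the mitochondrial dehydrogenase that interconverts the ketone bodies (GRCr8 chromosome 11, 82806125 to 82848133), lay at 1.39 to 2.82 CPM (median 1.74) and at 3.09 to 7.61 CPM (median 5.29; 1.48 ± 0.23, adjusted p = 0.00164). Neither gene's groups overlapped, and both calls held in every removal of libraries.

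Of 33 tested genes of glycolysis, glycogen and sugar entry 3 rose and 0 fell, with a median of 0.05 (0.595% of all genes tested rose). Slc2a5, the fructose transporter, lay at 2.17 to 5.598 CPM and at 4.92 to 12.2 CPM (1.14 ± 0.23, adjusted p = 0.0126). Khk, ketohexokinase, which phosphorylates fructose, lay at 0.760 to 2.19 CPM and at 2.20 to 4.79 CPM (1.10 ± 0.27, adjusted p = 0.0401). Ldhb, the lactate dehydrogenase subunit of slow and cardiac muscle, lay at 96.0 to 292 CPM (median 237) and at 263 to 448 CPM (median 364; 0.85 ± 0.19, adjusted p = 0.0251), whereas Ldha, the fast muscle subunit, had a log2 change of -0.29 (adjusted p = 0.340). Without animals 1 and 2 the calls of Ldhb (0.63, adjusted p = 0.0579) and Khk (1.24, adjusted p = 0.0512) were lost. The call of Khk was also lost when any 1 of 11 libraries was left out (adjusted p up to 0.0914) and without the 7 libraries scored lowest on principal component 1 (adjusted p = 0.135). The glycolytic enzymes Pygm, Pfkm, Aldoa and Eno3 had log2 changes between -0.07 and 0.05.

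By edgeR 0 members passed in several sets of oxidation. These were 23 genes of fatty acid oxidation (median 0.18), 26 of the citric acid cycle (0.13), 35 nuclear subunits of complex I (0.01), 39 of complexes II to V (0.11), 73 mitochondrial ribosomal proteins (0.01) and 26 genes of energy sensing around Ppargc1a and AMP-activated kinase (-0.06). At an unadjusted p under 0.05 there were 5, 4, 0, 5, 5 and 2 members in that order. DESeq2 called 1 gene of fatty acid oxidation and 3 of the citric acid cycle, all higher, and 0 in the other sets. Voom called 4, 3 and 3 higher in fatty acid oxidation, the citric acid cycle and complexes II to V, 2 lower in complex I, 2 higher and 3 lower among mitochondrial ribosomal proteins, and 1 higher and 2 lower in energy sensing. Cpt1b, which admits fatty acids to muscle mitochondria, stood closest in the oxidation list, with 7 of 8 cold libraries above all room temperature libraries (0.53 ± 0.15, adjusted p = 0.0902). Mdh1, the cytosolic malate dehydrogenase, separated the groups without overlap, at 429 to 778 CPM and 838 to 1191 CPM, but missed the threshold (0.54 ± 0.15, adjusted p = 0.0829). Of 12 lipogenesis genes 0 passed by edgeR (4 at an unadjusted p under 0.05), whereas DESeq2 called 2 and voom 3, all higher. Thrsp, a thyroid hormone responsive factor of lipid synthesis, separated the groups, at 4.07 to 22.7 CPM and 25.3 to 59.0 CPM (1.36 ± 0.36, adjusted p = 0.0579).

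Ucp2 was the 1 of 18 tested genes of uncoupling and futile cycles that passed. This mitochondrial carrier, a relative of the brown fat uncoupling protein, measured 4.67, 4.49, 6.20, 5.46, 3.69, 5.78, 3.92 and 5.09 CPM in room temperature animals 1 to 8 and 9.83, 12.5, 5.53, 13.3, 11.9, 23.8, 9.19 and 9.14 CPM in cold animals 16 to 23. Only cold animal 18 fell within the room temperature range, and animal 21 was highest (1.28 ± 0.26, adjusted p = 0.0136). Without room temperature animals 1 and 2 its log2 change was 1.25 (adjusted p = 0.0512). Ucp3, the form typical of muscle, lay at 82.2 to 279 CPM and at 54.0 to 202 CPM (-0.66 ± 0.32, adjusted p = 0.340).

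The glutathione peroxidases Gpx1 and Gpx3, which reduce peroxides, rose, and were the 2 of 25 tested antioxidant genes that edgeR called; DESeq2 called 3 higher, and voom 3 higher and 1 lower. Gpx1, the cytosolic form, lay at 208 to 367 CPM (median 300.3) and at 364 to 693 CPM (median 482; 0.77 ± 0.15, adjusted p = 0.0122). Gpx3, the secreted form, lay at 28.7 to 61.2 CPM and at 63.2 to 112 CPM without overlap (0.83 ± 0.16, adjusted p = 0.0126), and its call was lost without the 7 libraries scored lowest on principal component 1 (adjusted p = 0.0504). The NRF2 target Nqo1 had a log2 change of 0.71 (adjusted p = 0.0953), and Nfe2l2, which encodes NRF2, one of 0.00 (adjusted p = 0.9998).

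In a list of mostly secreted factors, chosen with earlier results of these data known, 4 of 19 tested genes rose and 0 fell, with a median of 0.28. Over all genes tested 0.595% rose, and the difference from that share was not tested. Enho, which encodes the peptide adropin, lay at 4.06 to 7.75 CPM (median 4.91) and at 8.58 to 14.0 CPM (median 11.1), with no overlap (1.12 ± 0.22, adjusted p = 0.0126). Ctxn3 lay at 1.55 to 4.79 CPM and at 4.78 to 18.9 CPM (1.603 ± 0.38, adjusted p = 0.0302), the protease inhibitor Cst7 at 2.50 to 11.3 CPM and at 6.69 to 27.9 CPM (1.31 ± 0.30, adjusted p = 0.0262), and the secreted phospholipase Pla2g12a at 27.1 to 134 CPM and at 82.7 to 269 CPM (1.41 ± 0.32, adjusted p = 0.0262). Of the 4, Enho alone kept its call without animals 1 and 2 (1.15, adjusted p = 0.0321), where Ctxn3 stood at 1.80 (adjusted p = 0.0512), Cst7 at 1.25 (adjusted p = 0.0605) and Pla2g12a at 1.21 (adjusted p = 0.104).

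Several single genes outside these groups kept their calls in every removal of libraries. Smarcd2, a subunit of SWI/SNF chromatin remodelling complexes, lay at 44.5 to 61.4 CPM (median 52.4) and at 63.7 to 93.5 CPM (median 78.9), a modest change with little spread (0.60 ± 0.11, adjusted p = 0.00585). Myh10, a non-muscle myosin heavy chain, lay at 22.7 to 39.2 CPM and at 43.7 to 66.1 CPM (0.88 ± 0.17, adjusted p = 0.0122). Prxl2a, a peroxiredoxin-like protein, lay at 27.1 to 51.1 CPM and at 49.4 to 115 CPM (0.99 ± 0.20, adjusted p = 0.0127). Rpa1, which binds single-stranded DNA, separated the groups at 36.4 to 53.7 CPM and 53.8 to 74.8 CPM (0.48 ± 0.10, adjusted p = 0.0167) and was lost without the same 7 libraries (adjusted p = 0.0875).

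Several single genes of signalling also rose. Fzd9, a Wnt receptor, lay at 16.6 to 27.4 CPM and at 30.04 to 66.5 CPM (1.06 ± 0.23, adjusted p = 0.0167), and Sfrp1, a secreted Wnt antagonist, at 2.50 to 10.9 CPM and 12 to 27.1 CPM (1.13 ± 0.26, adjusted p = 0.0276). Cyp26b1, which degrades retinoic acid, rose from a median of 30.8 to 54.5 CPM (0.99 ± 0.23, adjusted p = 0.0276), Id2, an inhibitor of helix-loop-helix factors, from 4.07 to 6.89 CPM (0.75 ± 0.19, adjusted p = 0.0492) and the phosphodiesterase Pde10a from 1.03 to 2.66 CPM (1.41 ± 0.32, adjusted p = 0.0251). Bhlhe41, a repressor of the circadian clock, rose from a median of 6.85 to 15.1 CPM (0.97 ± 0.24, adjusted p = 0.0401) and was the 1 of 16 clock genes that passed. None of these 6 passed without animals 1 and 2 (adjusted p = 0.0576 to 0.148).

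Matrix, tendon and immune genes have to be read beside the makeup of the libraries. In bulk muscle fewer cells of a type and less RNA per cell cannot be told apart. Of 38 tested matrix genes 3 rose and 0 fell: Bgn, a small proteoglycan, from 24.6 to 61.7 CPM up to 69.1 to 131 CPM (1.05 ± 0.24, adjusted p = 0.0265), Lox, the collagen cross-linking oxidase (1.01 ± 0.23, adjusted p = 0.0276), and the matrix glycoprotein Fbln1 (1.23 ± 0.31, adjusted p = 0.0476). Of 12 tendon markers 1 rose, the lubricant Prg4 (1.02 ± 0.23, adjusted p = 0.0240), and among 22 immune markers 2 did so, Cd163 of macrophages (0.99 ± 0.20, adjusted p = 0.0139) and the neutrophil protein S100a8 (2.81 ± 0.63, adjusted p = 0.0251). S100a8 lay at 0.378 to 1.52 CPM and at 1.53 to 11.4 CPM. The summed immune markers lay at 160 to 507 CPM at room temperature, where animals 1 and 2 were lowest, and at 431 to 681 CPM in the cold. The summed tendon markers lay at 117 to 453 CPM and at 210 to 746 CPM, and the part of these markers in the matrix calls was not tested.

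These 6 genes no longer passed without animals 1 and 2, at log2 changes of 0.88 for Bgn, 0.83 for Lox, 0.93 for Fbln1, 0.85 for Prg4, 0.79 for Cd163 and 2.62 for S100a8 (adjusted p = 0.0568 to 0.138). The median of the tendon list went from 0.60 to 0.30 and that of the immune list from 0.36 to 0.13. Of 14 white adipocyte markers 0 passed by edgeR (3 at an unadjusted p under 0.05) or DESeq2 and 1 was lower by voom, with a median of 0.38 that became 0.08 without these animals. Globins and other erythrocyte genes summed to 336 to 716 CPM at room temperature and to 574 to 1362 CPM in the cold, with 0 of 5 passing by edgeR (3 at an unadjusted p under 0.05), 1 higher by DESeq2 and 3 higher by voom. Their median log2 change of 0.71 was 0.67 without animals 1 and 2.

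Immediate early factors were among the genes lower in the cold. Fos, a subunit of the AP-1 transcription factor (GRCr8 chromosome 6, 110852188 to 110855054), measured 18.9, 13.5, 23.9, 25.8, 15.1, 30.4, 28.1 and 94.98 CPM in room temperature animals 1 to 8 and 6.37, 7.84, 8.00, 3.52, 6.93, 3.45, 15 and 7.59 CPM in cold animals 16 to 23. Cold animal 22 alone reached the room temperature range, and room temperature animal 8 was far above its group. Fos fell by 2.09 ± 0.44 on the log2 scale (adjusted p = 0.0145), and with room temperature animal 8 left out the call held. Egr1, a zinc finger factor, fell from 29.1 to 106 CPM down to 9.57 to 62.0 CPM (-1.46 ± 0.37, adjusted p = 0.0476), with cold animals 18 and 22 inside the room temperature range. Jun, the partner of Fos in AP-1, fell from a median of 204 to 143 CPM (-0.65 ± 0.16, adjusted p = 0.0476).

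The DNA before Egr1 is shown because the gene is a known target of serum response factor, which binds CArG boxes. The 250 bases upstream of its start (GRCr8 chr18:26736828-26737077, plus strand, RefSeq) hold 2 such boxes, in capitals, at -105 and -83.
Egr1: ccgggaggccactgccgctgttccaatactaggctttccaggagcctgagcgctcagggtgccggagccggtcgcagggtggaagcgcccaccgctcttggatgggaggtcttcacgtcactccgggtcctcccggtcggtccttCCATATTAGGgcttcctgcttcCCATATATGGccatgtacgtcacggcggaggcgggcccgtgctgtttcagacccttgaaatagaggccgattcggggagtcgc

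A CArG box occurred in 1 of the 16 windows of lower genes (6.25%), that of Egr1, in 1 of 51 windows of higher genes, that of the zinc finger gene Zbtb22, and in 1.26% of windows of tested genes. No window was available for Fos or Jun, so neither was searched. Of 22 immediate early and contraction-responsive genes 3 fell, 0 rose and 19 did not pass, with a median log2 change of -0.61 and 1 change above 0, that of Rcan1. The mRNA-destabilising protein Zfp36 (-1.45, adjusted p = 0.067) and the factor Egr2 (-1.13, adjusted p = 0.118) followed Rcan1 (1.21, adjusted p = 0.0570) among those that did not pass. Leaving out any 1 of 12 libraries ended the call of Egr1 (adjusted p up to 0.109) and any 1 of 13 that of Jun (adjusted p up to 0.106). Without animals 1 and 2 they stood at -1.34 (adjusted p = 0.132) and -0.72 (adjusted p = 0.0576).

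**Figure D3:**
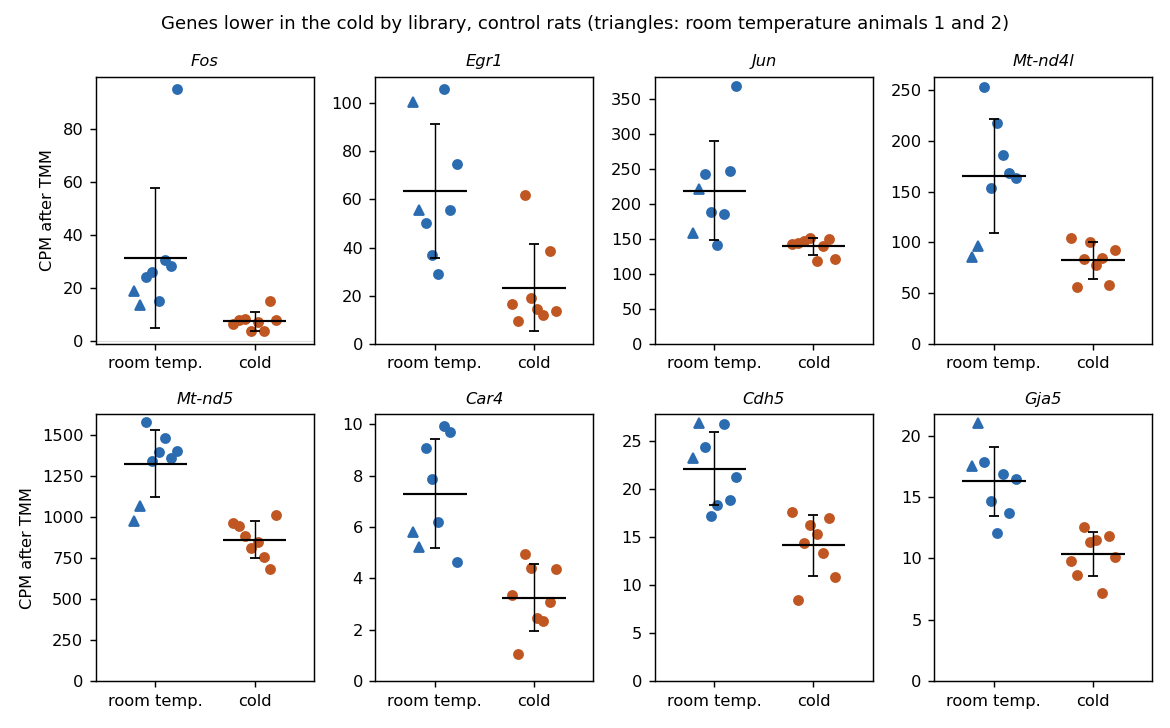
Level in CPM after TMM scaling of 8 genes lower in the cold, in each of the 8 room temperature (blue) and 8 cold (orange) control libraries; bars show the mean and SD, and triangles mark room temperature animals 1 and 2. Every gene shown has at least 1 library that overlaps the other group, and the highest room temperature value of Fos, 94.98 CPM, stands apart.

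Mitochondrially encoded transcripts took a smaller part of the counts in the cold. They held 12.5 ± 1.15% of counts at room temperature, with a range of 10.6 to 14.2%, and 10.3 ± 0.989% in the cold, with a range of 8.59 to 11.6% (SD, n = 8 and 8). The difference of -2.15 percentage points had p = 0.00171 by an exact permutation test over the 12870 splits (two-sided, adjusted p = 0.00342 over 2 measures). Of 12 transcripts 2 fell and 0 rose, with a median log2 change of -0.37 and 1 change above 0. Mt-nd4l, a small subunit of complex I, lay at 85.7 to 253 CPM (median 166) and at 56.0 to 104 CPM (median 83.7), with 5 of 8 cold libraries under the room temperature range (-1.01 ± 0.21, adjusted p = 0.0127). Animals 1 and 2 held its lowest room temperature values, 85.7 and 96.2 CPM.

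The complex I subunit Mt-nd5 lay at 977 to 1578 CPM and at 682 to 1009 CPM (-0.62 ± 0.14, adjusted p = 0.0237). Mt-nd3 (-0.59, adjusted p = 0.101) and Mt-nd2 (-0.57, adjusted p = 0.113) came next, while the cytochrome oxidase subunits Mt-co1, Mt-co2 and Mt-co3 had log2 changes of -0.03, -0.28 and -0.18 (adjusted p = 0.933, 0.421 and 0.663). Without animals 1 and 2 the falls were larger, -1.21 for Mt-nd4l (adjusted p = 0.00556) and -0.72 for Mt-nd5 (adjusted p = 0.0134). Counts do not say whether a read came from a finished mRNA or a longer mitochondrial precursor.

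Vascular genes stood among the remaining decreases. Of 16 tested endothelial markers 2 fell and 0 rose, with a median of -0.33 and 4 changes above 0. The largest of these was that of Plvap (0.53 ± 0.21, adjusted p = 0.253). The 2 that fell were Cdh5, the endothelial cadherin, from 17.1 to 26.8 CPM down to 8.37 to 17.5 CPM (-0.64 ± 0.16, adjusted p = 0.0476), and Arhgef15, an endothelial exchange factor (-0.76 ± 0.19, adjusted p = 0.0418). Outside that list, Car4, a carbonic anhydrase on the surface of capillary endothelium, fell from 4.62 to 9.94 CPM down to 1.06 to 4.94 CPM (-1.17 ± 0.28, adjusted p = 0.0350), and Gja5, a gap junction protein of arteries, from 12.1 to 21.1 CPM down to 7.201 to 12.6 CPM (-0.65 ± 0.16, adjusted p = 0.0489). The summed endothelial markers lay at 391 to 587 CPM at room temperature, where animals 1 and 2 were highest at 587 and 527 CPM, and at 323 to 452 CPM in the cold. Without those animals Car4 still passed (-1.28, adjusted p = 0.0487), whereas Cdh5 (-0.58, adjusted p = 0.148), Arhgef15 (-0.46, adjusted p = 0.226) and Gja5 (-0.56, adjusted p = 0.157) did not. Among the same genes, leaving out any 1 of 8 libraries ended the call of Car4, and any 1 of 12 or 13 that of the others. Car4 was also lost without the 7 libraries scored lowest on principal component 1 (adjusted p = 0.0539).

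The other decreases were in genes of unlike function, several of them at low level. Opn4, the photopigment melanopsin, lay at 1.19 to 5.42 CPM and at 0.399 to 1.45 CPM (-1.65 ± 0.33, adjusted p = 0.0127). Slc25a12, the mitochondrial aspartate-glutamate carrier, fell from a median of 3.70 to 2.64 CPM (-0.71 ± 0.18, adjusted p = 0.0466). Atat1, which acetylates tubulin, fell from 4.17 to 2.49 CPM (-0.77 ± 0.18, adjusted p = 0.0276). Fastkd3, a mitochondrial RNA-binding protein, fell from 16.4 to 12.1 CPM (-0.54 ± 0.13, adjusted p = 0.0352), and Wsb1, a substrate receptor of a ubiquitin ligase, from 10.7 to 5.49 CPM (-1.12 ± 0.24, adjusted p = 0.0184). The calls of Opn4 (-1.24, adjusted p = 0.0859), Fastkd3 (-0.32, adjusted p = 0.186) and Wsb1 (-0.84, adjusted p = 0.102) were lost without animals 1 and 2. Those of Slc25a12 and Atat1 held there (adjusted p = 0.0495 and 0.0487), but leaving out any 1 of 13 libraries ended that of Slc25a12 (adjusted p up to 0.11) and any 1 of 6 that of Atat1 (adjusted p up to 0.0728). Slc25a12 was also lost without the 7 libraries scored lowest on principal component 1 (adjusted p = 0.121).

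Pik3cd, a lipid kinase subunit of leukocytes, was highest in the 2 libraries set apart on principal component 2. It measured 96.3 and 119 CPM in room temperature animals 1 and 2 and 27.4 to 43.1 CPM in animals 3 to 8, against 24.5 to 33.9 CPM in the cold (-0.93 ± 0.23, adjusted p = 0.0427), and without animals 1 and 2 its log2 change was -0.34 (adjusted p = 0.311). Trim63, a muscle ubiquitin ligase of atrophy, separated the groups without overlap, at 405 to 1015 CPM and 202 to 378 CPM, but missed the threshold (-0.99 ± 0.32, adjusted p = 0.140). It belongs to a list of 30 atrophy and autophagy genes in which 0 passed by edgeR (5 at an unadjusted p under 0.05), 1 was higher by DESeq2, and 3 were higher and 1 lower by voom, with a median of 0.01. Heat shock proteins (25 tested), proteasome subunits (36), cytosolic ribosomal proteins (62), stress response genes of the endoplasmic reticulum (27) and glucocorticoid-responsive genes (17) also had 0 passing members by edgeR, with medians of -0.11, -0.16, -0.10, 0.19 and 0.00 and 3, 4, 8, 7 and 4 members at an unadjusted p under 0.05. DESeq2 called 3 higher in the endoplasmic reticulum list and 1 higher and 1 lower in the glucocorticoid list. Voom called 4 higher and 1 lower, and 2 higher and 1 lower, in these, 3 lower proteasome subunits, and 1 higher and 1 lower ribosomal protein.

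**Figure D4:**
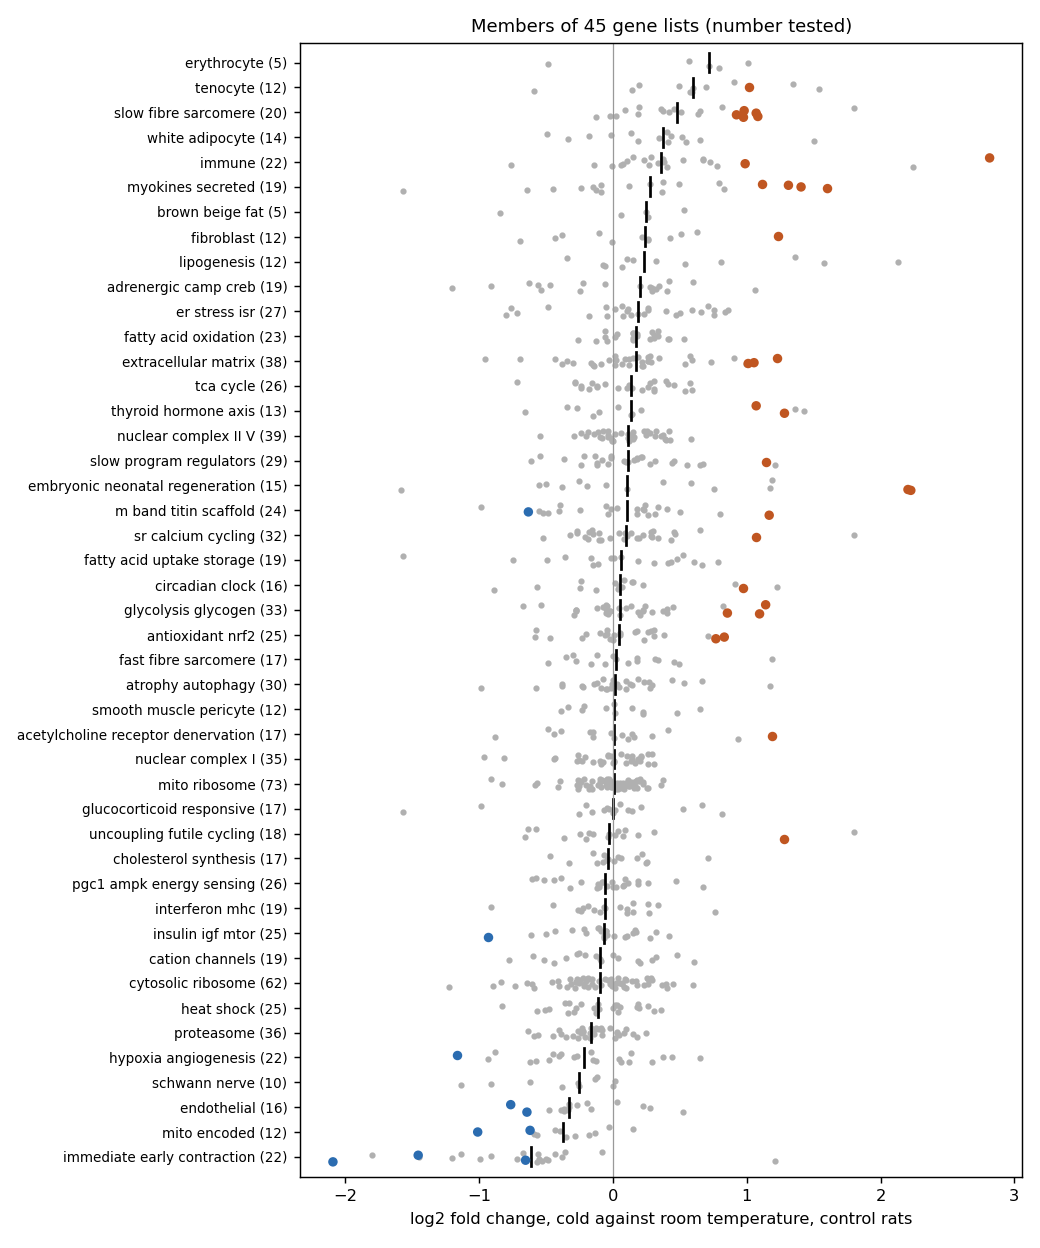
Log2 fold change in cold control rats of the tested members of 45 gene lists, 1 row per list with the number tested; orange and blue points passed at adjusted p under 0.05 (higher and lower), grey points did not, and the black bar is the list's median. The slow fibre list has a median of 0.48, under those of the erythrocyte (0.71) and tenocyte (0.60) lists. The immediate early list has the lowest, -0.61, against -0.03 over all genes tested. Genes can stand in more than 1 list.

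In Ucp1 knockout rats, whose libraries share none with the control comparison, the same genes mostly leaned the same way. Of the 86 genes 83 had a log2 change of the same sign, against 60% of all genes tested. The median change of the 60 higher genes was 0.85 and of the 26 lower genes -0.50. As the 86 were chosen by their change in controls, smaller medians in knockouts do not by themselves show a weaker response. In knockouts 139 genes passed (1.38%; 103 higher, 1.02%, and 36 lower, 0.357%), and 35 of the 86 were among them, 31 higher and 4 lower. Bdh1 changed there by 1.80 ± 0.24 (adjusted p = 9.70e-05), Myh7 by 0.78 ± 0.16 (adjusted p = 0.00898) and Mt-nd4l by -1.14 ± 0.21 (adjusted p = 0.00338). Esrrg stood at 0.44 ± 0.21 (adjusted p = 0.319), Myom1 at 0.03 ± 0.28 (adjusted p = 0.985) and Fos at -1.04 ± 0.43 (adjusted p = 0.235).

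A difference between the genotypes has its own test, and by edgeR 0 of 10082 genes passed it, with 737 at an unadjusted p under 0.05. DESeq2 called 1 gene and limma voom with sample weights 4, with Bhlhe41 in both. Bhlhe41 went from a mean of 7.38 to 14.5 CPM in controls and from 11.02 to 6.41 CPM in knockouts. Its difference between the genotypes, knockout minus control, was -1.75 ± 0.34 on the log2 scale, with a 95% interval of -2.44 to -1.05 (edgeR adjusted p = 0.125; DESeq2 adjusted p = 0.00412). For Myh7 that difference was -0.20 (interval -0.65 to 0.25), for Esrrg -0.70 (-1.29 to -0.12; adjusted p = 0.608) and for Myom1 -1.14 (-1.92 to -0.35; adjusted p = 0.538). Of the 86 genes 20 had an unadjusted p under 0.05 for it. The 86 were chosen by their change in controls, which is part of this difference. That choice favours small p-values here, so neither the count nor these intervals can be read as for unchosen genes.

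**Figure D5:**
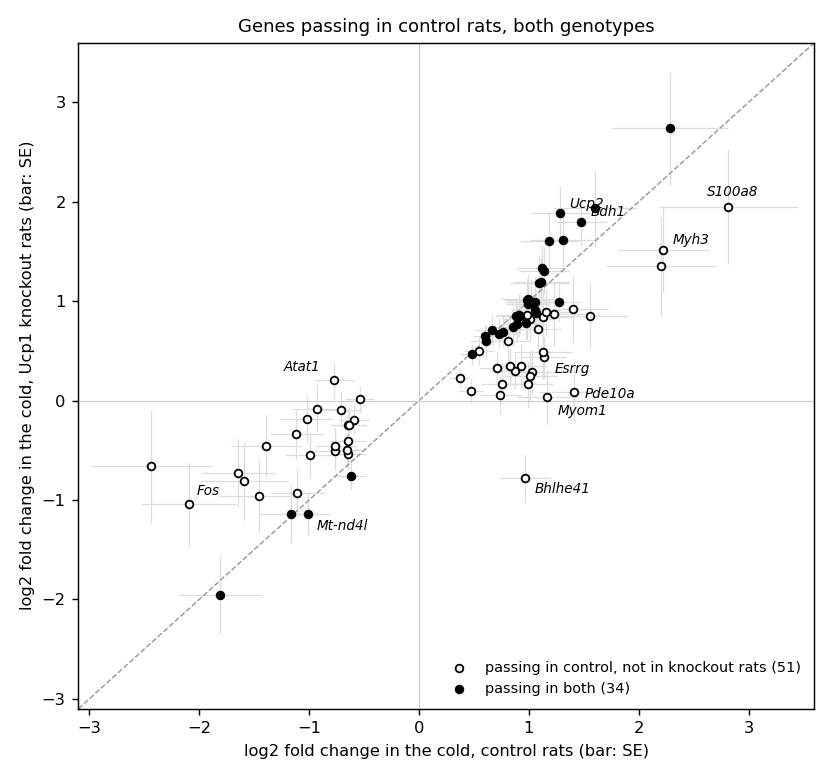
Log2 fold change in the cold in control rats (horizontal) and Ucp1 knockout rats (vertical) of 85 of the 86 genes that passed in controls, with SE bars and a dashed line of equality; 1 identifier at 6.35 and 6.08 lies off the axes. Filled points (34) also passed in knockouts and open points (51) did not. Bhlhe41, Atat1 and Fastkd3 have opposite signs in the genotypes.

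How firmly a gene can be read differs within the 86. In all single omissions of the 16 control libraries 29 of the 86 kept their calls, and 18 did so in every removal of libraries that was tried. Those with symbols were Atp2a2, Myh7, Tpm3, Myoz2, Myh3, Esrrg, Bdh1, Parm1, Smarcd2, Myh10, Prxl2a, Slc2a5, Enho and Gpx1, all higher, and Fos and Mt-nd4l, both lower. Without animals 1 and 2, 38 genes passed, 24 higher and 14 lower, of which 29 were among the 86. Without cold animal 21 there were 36 (29 higher, 7 lower) and without room temperature animal 4 there were 154 (94 higher, 60 lower). Omission of room temperature animals 1 or 2 alone left 53 and 43, and of cold animals 17, 20 or 22 alone left 56, 45 and 52.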

How the data were processed

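Gastrocnemius RNA was snap frozen, extracted with Trizol and RNeasy columns and made into QuantSeq 3' tag libraries, per the labels' protocols. The authors deposited a table of raw read counts per gene and a table of normalised signal. The deposited signal equals the count divided by 1 size factor per library, to within 5.23e-10. DESeq2 1.22.2 and the genome Rnor_6.0 are named in the submitters' processing notes; the sources used here do not name the aligner, the counter or its strand setting. The table lists 11289 genes, with the lowest total at 93 counts, and 0 of its columns could not be mapped to a sample.

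The main test of the counts was that of edgeR 4.0.16, run in R 4.3.3 (quasi-likelihood fit on all 31 libraries with 4 group means, TMM scaling, filterByExpr with a minimum count of 10, Benjamini-Hochberg adjustment over 10082 genes, threshold 0.05). Alternatives used DESeq2 1.42.0, limma 3.58.1 voom with sample weights, other size factors and filters, a first principal component covariate and fewer libraries. Fits that dropped the 7 libraries scored lowest on it were chosen after seeing the data. The standard error is the log2 change divided by the square root of F. The script was tested on simulated counts. The share of counts from mitochondrial transcripts and the total counts were compared by exact permutation. Symbols came from the deposited table for 10190 genes and from RefSeq for 175. Promoter sequences and coordinates are RefSeq's on GRCr8.

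Any gene with a symbol that passed could be named, with up to 4 members of each list by smallest p and a fixed list of reference genes. Other list members without a call, such as Tnni1, Tnnc1, Myl2, Myl3, Pln, Esrra, Myod1, Myog, Ldha, Zfp36, Nfe2l2, glycolytic enzymes and cytochrome oxidase subunits, were chosen after their values were seen. Members and lists were chosen with earlier results of these data known. Animals are numbered separately, but no litter or cage is given. PCR copies were not told apart, so p-values take each read as 1 count. Totals of 6.56 to 10.9 M counts limit genes at a few CPM.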

Additional observations from a re-analysis of the deposited data

Results flagged for a closer look

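In 21 of 230 groups (115 named genes, 2 groups of 8 control libraries each), the highest or lowest library stood apart from its group by Dixon's 95% criterion for 8 libraries. For independent, normally distributed values chance would flag about 1 group in 20, or 11.5 of 230. The CPM were not transformed and genes measured in the same animals are not independent, so 11.5 is only a rough guide. Values are CPM, with the nearest library of the group in parentheses.

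In the cold group, animal 21 was highest for Myh3 at 89.4 (41.2), Tnnt2 at 17.95 (7.81), Sln at 91.5 (30.9) and Ucp2 at 23.8 (13.3). Animal 17 was highest for Myom1 at 463 (261), Sfrp1 at 27.1 (17.3), Idh2, a mitochondrial isocitrate dehydrogenase, at 1226 (944) and Retn, the fat cell hormone resistin, at 61.4 (35.8). Animal 22 was highest for Fos at 15 (8.00) and Lox at 41.1 (24.8), animal 20 for Ctxn3 at 18.9 (10.7) and animal 16 for Mdh1 at 1191 (984).

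At room temperature, animal 8 was highest for Fos at 94.98 (30.4) and Jun at 369 (247). Animal 2 was highest for Wsb1 at 22.6 (12.6) and Trim63 at 1015 (682) and lowest for Agfg2 at 10.01 (14.4), and animal 1 was highest for Nfatc1, a calcineurin-regulated factor, at 121 (88.8). Animal 6 was highest for Scd, a fatty acid desaturase, at 7.10 (3.10), animal 3 for Pdk4, an inhibitor of pyruvate dehydrogenase, at 4.84 (2.33) and animal 4 for Inpp5a, an inositol phosphatase, at 102 (71.5).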

How the results depend on the processing

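Other size factors, no filter, a stricter filter and a fit on the 16 control libraries gave 85, 80, 74 and 93 calls in place of 86, and 0 named values changed sign in any setting. Genes higher and lower in the cold numbered 128 and 92 by DESeq2, 396 and 291 by limma voom with sample weights, 160 and 219 with principal component 1 as covariate, and 24 and 14 without room temperature animals 1 and 2. Higher genes made up 69.8% of the calls reported, 58.2% by DESeq2, 57.6% by voom and 42.2% with the covariate. When the 7 libraries scored lowest on it were dropped there were 40 and 13, and without those and animals 1 and 2 there were 42 and 23; both settings were chosen after seeing the data. Leaving out 1 library gave 29 to 94 higher and 7 to 60 lower genes; the cause was not tested. For the difference between genotypes DESeq2 called 1 gene (899 at an unadjusted p under 0.05) and voom 4 (1113), against 0 by edgeR (737). No paired analysis was possible because each animal has its own number. Genes at a few CPM rest on few reads a library, so small changes there were not detectable at this depth.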

Other observations

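Some genes were near 0 in some animals and at least 2 log2 units higher in others, with no library between and at least 3 control libraries on each side. There were 8 such genes, chosen after their values were seen. The identifier ENSRNOG00000029115, matched to LOC102555453 in RefSeq, was at 0.304 to 1.19 CPM in all 8 room temperature controls. In cold animals 16 to 23 it was at 132.5, 0.399, 200.2, 1.10, 1.86, 91.2, 80.9 and 48.7 CPM. It was in the upper range in 5 of 8 cold controls, 4 cold knockouts and 0 animals of either genotype at room temperature (log2 change 6.35 ± 1.24, edgeR adjusted p = 0.0122).

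The other 7 did not pass. Mrpl43, a mitochondrial ribosomal protein, was in the upper range in 5 room temperature and 4 cold controls, with values from 0.203 to 276 CPM (adjusted p = 0.775). Adgrb2, an adhesion receptor, was in the upper range in 4 and 5 (adjusted p = 0.674), Tsen34, a tRNA splicing subunit, in 3 and 6 (adjusted p = 0.604) and Bloc1s3, a subunit of an organelle biogenesis complex, in 6 and 7 (adjusted p = 0.886). Rpl30l1 was in the upper range in 5 and 7 (adjusted p = 0.881).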
